A study of Mus musculus with 10 samples.

Results

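Hematopoietic stem cells renew themselves under a small set of transcription factors, and 9 of these, Hlf, Meis1, Mecom, Prdm16, Mllt3, Erg, Fli1, Etv6 and Gfi1, were followed here through CD34- HSCs of control mice and of mice labelled as lacking Regnase-1. The genes were taken by their symbols, which gave 9 of the 33393 genes and 71 of the 95912 transcripts in the processed data. All 9 were among the 12874 genes tested. Each of the 9 was lower in every library labelled Reg1Δ/Δ than in every control of the same experiment, by a log2 fold change of -0.82 for Mllt3 to -5.22 for Hlf.

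RNA was sequenced from bone marrow HSCs (Lin- Sca-1+ c-Kit+ CD34- Flt3-) of individual C57BL/6 mice at 8 weeks of age. Control mice carried the floxed allele without Cre (Reg1flox/flox), and Reg1Δ/Δ mice carried Vav1-iCre together with the same floxed alleles, so both groups share the floxed gene and only the Cre differs by label. Vav1-iCre acts throughout the blood lineage, in committed cells as well as in stem cells. By the sample names, the first experiment had 3 libraries per genotype and the second had 2, and each library is a separate mouse. The values are TPM, a relative level that is corrected for transcript length and library total, and they keep no read number, so how deeply a library was sequenced is unknown.

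Most of these proteins bind DNA. Hlf, a bZIP factor of the PAR family, Mecom, a zinc-finger protein, and Meis1, a homeodomain protein that works with Hox and Pbx proteins, are known as factors that keep adult stem cells quiescent and able to engraft. Prdm16 is the closest relative of Mecom. Mllt3 (AF9) differs from the rest in that it reads acylated histones and brings elongation factors and the methyltransferase Dot1l to active genes. Erg, Fli1 and Etv6 belong to the ETS family, in which Erg and Fli1 act with Gata2, Lmo2, Lyl1, Runx1 and Tal1 at stem cell enhancers, while Etv6 represses. Gfi1 is a repressor known to restrain stem cell cycling.

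The labels were checked first with the targeted gene. Zc3h12a, which encodes Regnase-1, had TPM of 1.83, 1.28 and 1.60 in the controls and 3.54, 2.08 and 2.51 in the libraries labelled Reg1Δ/Δ in the first experiment. In the second experiment it had 1.48 and 6.07 in the controls and 10.3 and 8.52 in the libraries labelled Reg1Δ/Δ. The targeted gene was thus higher, not lower, in the libraries labelled Reg1Δ/Δ, with no overlap in either experiment (log2 fold change 0.83, SE 0.28, limma FDR 0.0314), and also under quantile normalization (1.73) and median-of-ratios scaling (1.08). The value adds up whole transcripts, so RNA of exons outside the deleted part counts too. Directions below are therefore given by label. 1 library of the second experiment, replicate 2 of those labelled Reg1Δ/Δ, carried the name of replicate 1 inside its data, held other values than that library, and was taken as replicate 2. Without it, all 9 members remained lower at an FDR of at most 0.0141.

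The sorted population was compared with marker lists. Among the HSC markers, Procr (EPCR) lay at 19.8 to 37.3 TPM in the 5 controls and at 0.108 to 1.36 TPM in the 5 libraries labelled Reg1Δ/Δ. Fgd5, a gene used to mark stem cells, lay at 2.61 to 7.5 and 0.036 to 0.21 TPM. It reached 1 TPM, the level set for testing, in the controls alone, and the next count, which includes it, is given as a description. Of the 7 tested HSC markers 6 were lower and 0 higher in the libraries labelled Reg1Δ/Δ (0 at an unadjusted p under 0.05), and Ly6a (Sca-1), with 50.9 to 449 TPM there against 68.1 to 108 in the controls, was not called. The controls thus had the markers of their labelled cell type, and the other libraries had most of them at lower levels. Cd34 and Flt3, whose proteins the sort selected against, were at 51.9 to 236 and 11.0 to 33.9 TPM in the controls and at 9.54 to 19.8 and 1.16 to 2.21 in the libraries labelled Reg1Δ/Δ.

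Markers of other cells moved with the same labels. The summed TPM of 8 B lineage markers was 131 to 918 and 880 to 1020 in the controls of the 2 experiments and 5.05 to 18.2 and 2.34 to 6.33 in the libraries labelled Reg1Δ/Δ. Of these markers, 2 of the 8, Pax5 among them, were at 0 in 1 library labelled Reg1Δ/Δ of the first experiment, and 5 of the 8 in 1 of the second. The sum over 8 myeloid markers was 2870 to 4180 and 10200 to 11100 in the controls and 314 to 1080 and 861 to 969 in the libraries labelled Reg1Δ/Δ. S100a8, S100a9, Lyz2, Csf1r and Prtn3 were lower. The granule protease genes Elane and Ctsg and the peroxidase gene Mpo were not called (limma FDR 0.111, 0.113 and 0.0683). Their log2 fold changes were -2.52, -2.45 and -2.95 in the first experiment, without overlap, and 0.16, 0.17 and 0.01 in the second, with overlap. Under quantile normalization Mpo was called lower (limma FDR 0.0487). The 6 erythroid markers went the other way, with sums of 1060 to 3110 and 3080 to 3960 in the controls against 8000 to 8720 and 6740 to 6850, with Klf1, Car1 and Epor higher and the globins Hba-a1 and Hbb-bt lower. These sums are mostly those of 1 gene, the carbonic anhydrase Car1, at 505 to 2709 and 1766 to 1961 TPM in the controls and 7568 to 8301 and 6028 to 6243 in the libraries labelled Reg1Δ/Δ. Megakaryocyte sums (4 markers) were 221 to 439 and 85.8 to 98.5 against 79.2 to 95.2 and 18.4 to 26.6. T and NK sums (3 markers) were 227 to 274 and 65.8 to 81.8 against 91.0 to 144 and 35.4 to 45.1. They are almost all Nkg7, at 225 to 269 and 63.2 to 78.5 TPM against 90.8 to 144 and 35.2 to 44.6. Cd3e and Cd3g were too low to be tested. Endothelial sums (4 markers) were 39.3 to 44.6 and 54.9 to 65.6 against 3.37 to 6.16 and 3.86 to 5.23. Cdh5, the endothelial cadherin, was at 0 in all 5 libraries labelled Reg1Δ/Δ. Its controls were near 0 as well in the first experiment (0.006 to 0.317 TPM) and at 9.57 and 10.6 in the second, and it was not tested. The part of these cells in the results below was not tested, and in such bulk samples fewer cells of a type and less RNA per cell cannot be told apart.

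**Figure D1:**
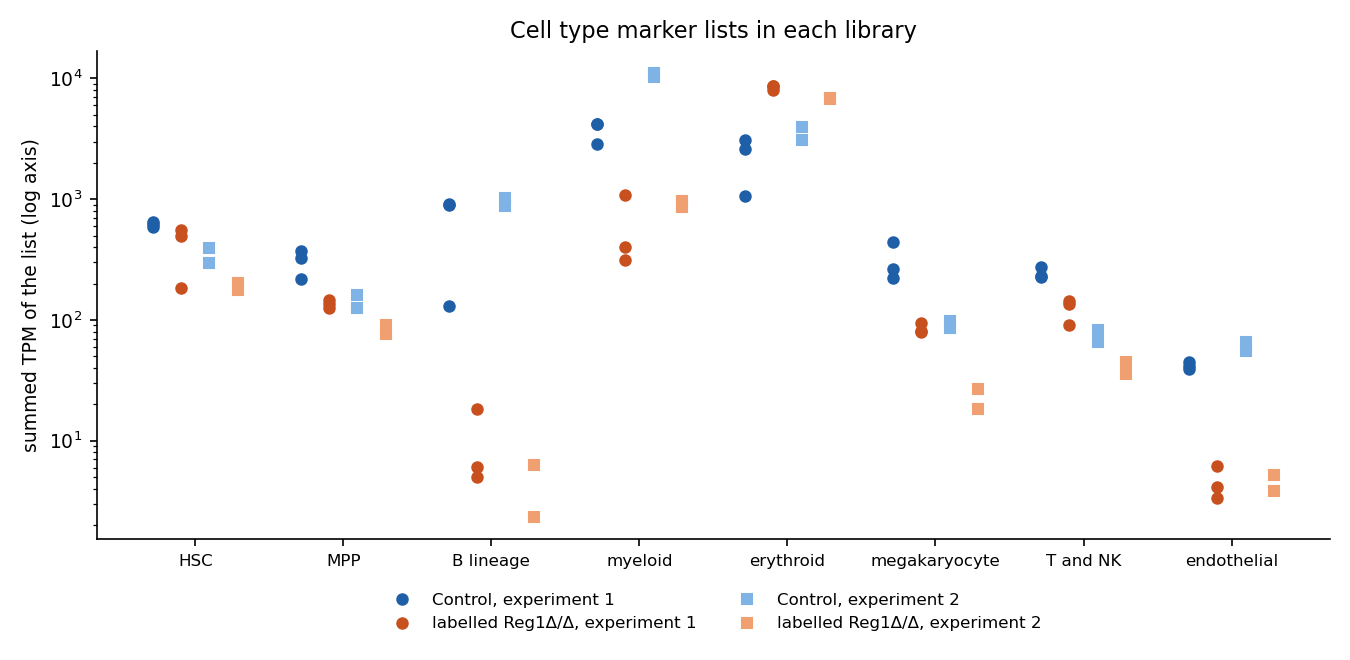
Summed TPM of each cell type marker list (log axis) in each of the 10 libraries, 1 point per library, in blue for controls and orange for the libraries labelled Reg1Δ/Δ, circles for the first and squares for the second experiment. B lineage sums were 131 to 1020 in the controls and 2.34 to 18.2 in the libraries labelled Reg1Δ/Δ, and the erythroid sums, which are mostly Car1, were higher in the latter.

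Against this background, the 9 factors were compared between genotypes with limma, fitted to log2(TPM + 1) with a term for the experiment. All 9 fell at an FDR under 0.05, and 0 were higher (0 at an unadjusted p under 0.05 as well). Of all tested genes, 37.9% were lower and 15.0% higher by the same rule. Every library labelled Reg1Δ/Δ lay below every control within both experiments for all 9 factors and for 31.4% of all tested genes. The median log2 fold change was -2.72 over the 9 factors and -0.25 over all tested genes. The scale matters for the latter, since quantile normalization and median-of-ratios scaling moved the median of all genes up by 0.40 and 0.30 and turned the split of calls from 4880 lower and 1933 higher to 2636 and 3861 or 3425 and 3973. All 9 factors had negative values under both scalings, and 9 were called under median-of-ratios scaling and 8, all but Prdm16, under quantile normalization. For each of the 9, the exact two-sided permutation test within experiments gave p = 0.0167, the smallest that its 120 assignments allow.

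**Figure D2:**
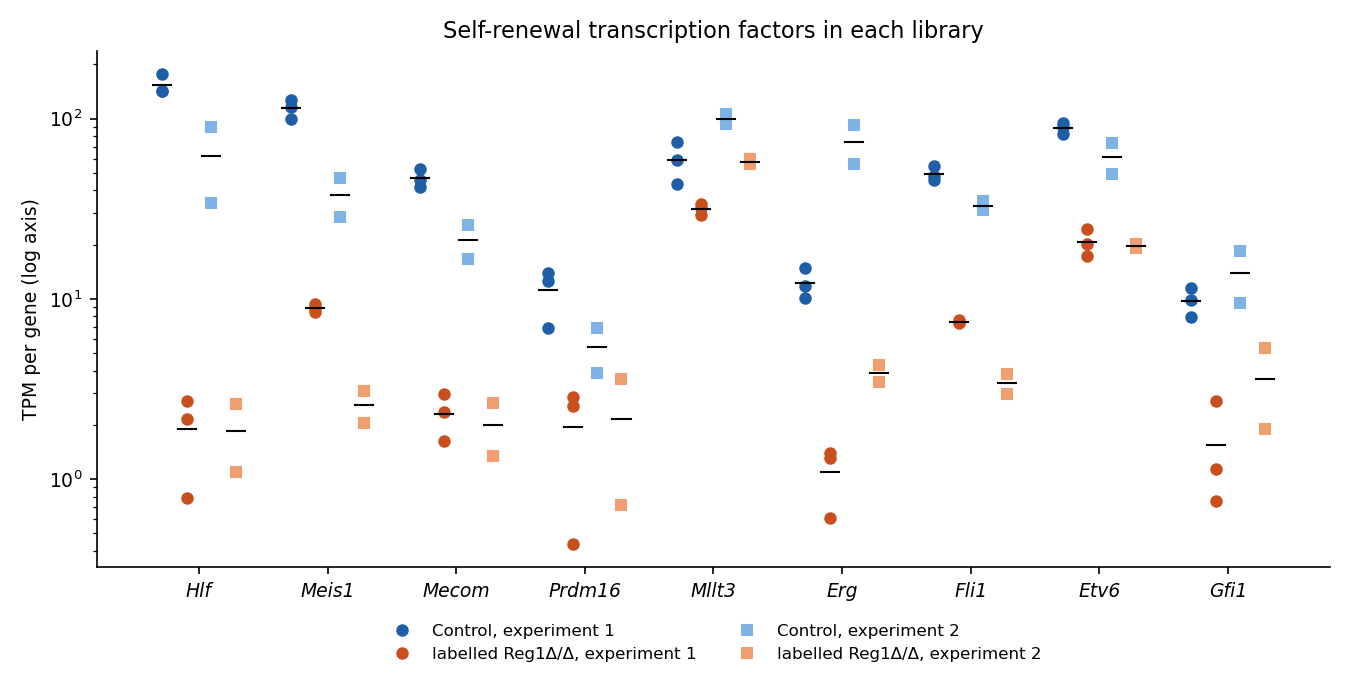
TPM of each factor (log axis) in each of the 10 libraries, 1 point per library, with a black line at the mean of each group of 3 (first experiment) or 2 (second). The orange points of a factor lie below the blue points of the same symbol throughout, and the closest points of the 2 colors are, at 3.87 and 3.60 TPM, those of Prdm16 in the second experiment.

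In the controls of the first experiment, Hlf had the highest level per length (154 ± 19.4 TPM, SD, n = 3), followed by Meis1 (114 ± 14.1), Etv6 (88.8 ± 6.57), Mllt3 (58.7 ± 15.6), Fli1 (49.4 ± 4.56), Mecom (46.7 ± 5.5), Erg (12.2 ± 2.38), Prdm16 (11.2 ± 3.72) and Gfi1 (9.74 ± 1.75). Mllt3, Fli1 and Mecom did not differ beyond their spread, nor did Erg, Prdm16 and Gfi1. In the controls of the second experiment the order was another, with Mllt3 (99.5 ± 8.46, SD, n = 2) and Erg (74.4 ± 25.6) on top, then Hlf (61.8 ± 39.4), Etv6 (61.3 ± 17.2), Meis1 (37.8 ± 13.0), Fli1 (32.8 ± 2.68), Mecom (21.2 ± 6.36), Gfi1 (14.0 ± 6.37) and Prdm16 (5.39 ± 2.15). Here Hlf overlapped Erg, Etv6, Meis1 and Fli1, Erg overlapped Etv6, Meis1 overlapped Fli1, and Mecom overlapped Gfi1, so that most of this order is not separated.

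In the libraries labelled Reg1Δ/Δ, Mllt3 (31.5 ± 2.07 TPM in the first and 57.7 ± 2.64 in the second experiment) and Etv6 (20.6 ± 3.5 and 19.6 ± 0.717) were the highest of the 9. Meis1 (8.90 ± 0.453) and Fli1 (7.48 ± 0.155) came next in the first experiment. Mecom, Prdm16, Hlf, Gfi1 and Erg lay together at means of 1.10 to 2.31 in the first experiment, and the 7 factors other than Mllt3 and Etv6 at means of 1.86 to 3.87 in the second. The places of Hlf and Meis1 in the first-experiment controls rest on the sum over all transcripts, since protein-coding ones held 10.2% to 14.5% of the TPM of Hlf and 25.8% to 32.0% of that of Meis1 there.

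Hlf had the deepest fall of the 9. In the first experiment its TPM was 176, 142 and 143 in the controls and 2.72, 2.15 and 0.791 in the libraries labelled Reg1Δ/Δ, and in the second it was 33.9 and 89.6 against 1.10 and 2.62. The control mean was 81.5 times the other in the first and 33.2 times in the second experiment, although the controls of the second experiment lay lower and further apart. The log2 fold change was -5.22 (SE 0.37, limma FDR 3.71e-06), which ranked 18 among the falls of all 12874 tested genes. Hlf lies on chr11:90336536-90390895, minus strand (GRCm38, GENCODE M21).

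What was counted as Hlf differed between the experiments. Most of its TPM in the first-experiment controls came from Hlf-205, a processed transcript of 245 nt inside the gene, with 131, 90.1 and 101 TPM in the controls and 1.90, 1.17 and 0 in the libraries labelled Reg1Δ/Δ. In the second experiment this short transcript had 0 and 17.4 TPM in the controls and 0 in both others. The protein-coding transcript from the RefSeq start, Hlf-201, had 7.68, 10.4 and 9.33 against 0.134, 0.180 and 0.234 TPM in the first experiment. In the second it had 24.9 and 56.1 against 0.462 and 0.385. The coding transcript was thus lower as well, without overlap, but it reached 1 TPM, the level set for testing, in the controls alone, so that no test of it is given. Its controls were higher in the second experiment, opposite to the order of the gene's total.

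The 250 bases before this start are shown because Hlf fell the furthest. They lie upstream of the gene at chr11:90390918-90391167 (GRCm38.p6, RefSeq), minus strand, are printed 5′ to 3′ and end at the base before the start. Capitals mark matches, on either strand, to the letters CGGAA of ETS factors, AGATAA of GATA factors, TGTGGT of Runx factors, TGACAG of Meis factors and TTANGTAA, the site of Hlf and its relatives.
Hlf: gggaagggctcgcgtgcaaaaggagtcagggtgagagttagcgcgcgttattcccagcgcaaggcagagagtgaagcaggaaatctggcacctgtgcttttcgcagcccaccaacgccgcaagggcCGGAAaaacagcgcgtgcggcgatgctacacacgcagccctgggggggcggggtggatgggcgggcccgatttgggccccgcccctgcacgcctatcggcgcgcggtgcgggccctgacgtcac
A CGGAA match stood 124 bases before the start, and the same letters were in 25.2% of all 32851 promoter windows of this length. The other 4 motifs had no match here.

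Meis1 fell by 3.49 on the log2 scale (SE 0.15, limma FDR 3.61e-07). Its TPM was 116, 127 and 99.3 against 8.90, 9.35 and 8.45 in the first experiment and 28.6 and 47.0 against 3.08 and 2.05 in the second. The controls were lower and further apart in the second experiment, no group overlapped another, and the ratio of the means was 12.8 and 14.7. Its main coding transcript, Meis1-201, had 34.9, 31.7 and 22.5 against 2.62, 2.67 and 2.4 TPM and then 24.4 and 24.7 against 1.56 and 1.56, so that its level in the controls was alike in both experiments (log2 fold change -3.18, SE 0.15, limma FDR 6.29e-06). The gene lies on chr11:18879817-19018985, minus strand.

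The Meis1 promoter is shown beside that of Hlf because both windows have an ETS match. Of the 13 promoter windows of the members, 4 (30.8%) had such a match, against 25.2% of all windows. It is the 250 bases upstream of the RefSeq start, at chr11:19018970-19019219, minus strand, printed in the same way. Its last bases, with the ETS match, lie inside the gene by GENCODE M21, where the gene reaches base 19018985.
Meis1: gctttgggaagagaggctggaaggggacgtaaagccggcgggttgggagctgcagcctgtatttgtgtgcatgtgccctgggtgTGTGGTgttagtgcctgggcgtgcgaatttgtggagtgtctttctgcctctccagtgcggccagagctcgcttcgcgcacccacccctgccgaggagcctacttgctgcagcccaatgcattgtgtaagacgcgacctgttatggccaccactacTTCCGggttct
TTCCG, the reverse of CGGAA, began 11 bases before the start, and TGTGGT, which is in 14.0% of all windows, began 166 bases before it. The letters for GATA, Meis and PAR factors, found in 9.99%, 15.9% and 2.06% of all windows, were not in this window.

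The homeodomain partners of Meis1 moved in the same direction. Of 8 listed genes 7 were tested, all 7 were lower and 0 higher (0 at an unadjusted p under 0.05), and their median was -1.55. The largest fall was that of Hoxa10, at 6.15, 6.60 and 6.78 against 1.01, 0.672 and 1.06 TPM and 6.60 and 10.2 against 1.27 and 2.13 (log2 fold change -1.90, limma FDR 5.08e-06; -1.15 under quantile normalization). Hoxa9, the usual partner of Meis1, fell by 1.64 (limma FDR 5.02e-05). Pbx2, Pbx3 and Pknox1 had smaller falls (-0.42 to -0.64) which were not called under either of the scalings, where 4 of 7 were called, and under quantile normalization Pbx3 (0.20) and Pknox1 (0.10) were positive. Of the relatives of Meis1, Meis3 fell by 1.56 (limma FDR 0.000158; -0.83 under quantile normalization), and Meis2 was too low to be tested (0 to 0.013 TPM in the libraries labelled Reg1Δ/Δ and 0.093 to 2.07 in the controls).

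Mecom fell by 3.48 (SE 0.24, limma FDR 2.77e-06). Its TPM was 52.6, 41.7 and 45.9 in the controls of the first experiment against 2.35, 1.62 and 2.95, and 16.7 and 25.7 against 1.35 and 2.65 in the second. The control mean was 20.3 and 10.6 times the other. The gene lies on chr3:29951296-30548008, minus strand, and RefSeq gives 2 starts, an upstream start whose products carry the PR domain and an internal start, inside the gene, for the shorter form called Evi1.

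Transcripts were grouped by the annotated start within 1000 bases. The upstream start of Mecom had first-experiment TPM of 11.6, 11.1 and 11.0 in the controls against 0.611, 0.164 and 0.346, and 7.24 and 5 against 0.830 and 0.438 in the second. The internal start had 2.68, 2.92 and 3.72 against 0.0458, 0.0315 and 0.0974, and 2.67 and 7.94 against 0 in both libraries labelled Reg1Δ/Δ. Both starts were thus low in all libraries labelled Reg1Δ/Δ. The rest of the gene's TPM, 40.7% to 72.8% of it in the controls, came from other starts. In the first experiment most of this was Mecom-201, a single-exon transcript of 348 nt inside the gene (29.2, 21.8 and 26.5 TPM in the first 3 controls, 0.668 and 0 in the other 2). In the second-experiment controls it was spread over coding transcripts, with 0 and 6.82 TPM for Mecom-203, 2.89 and 2.68 for Mecom-215, 1.21 and 2.96 for Mecom-204 and 2.02 and 0 for Mecom-210.

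The sequences before both starts are shown since both were lower. They lie at chr3:30509760-30510009, upstream start, and chr3:30013205-30013454, internal start, and are printed as above.
Mecom upstream start: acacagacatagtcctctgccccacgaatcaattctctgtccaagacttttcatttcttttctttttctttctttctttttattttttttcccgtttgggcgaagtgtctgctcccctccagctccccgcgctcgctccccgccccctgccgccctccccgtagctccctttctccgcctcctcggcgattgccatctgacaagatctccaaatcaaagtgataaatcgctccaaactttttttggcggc
Mecom internal start: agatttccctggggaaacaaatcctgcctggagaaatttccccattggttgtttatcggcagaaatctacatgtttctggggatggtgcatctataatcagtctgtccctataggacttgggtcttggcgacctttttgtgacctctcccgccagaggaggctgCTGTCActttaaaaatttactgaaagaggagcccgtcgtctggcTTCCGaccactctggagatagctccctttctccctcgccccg
The window of the internal start had the reverse of TGACAG beginning 86 bases and the reverse of CGGAA beginning 42 bases before the start, while that of the upstream start had none of the 5 motifs.

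Prdm16 had the fall with the largest SE. Its TPM was 14.0, 12.6 and 6.93 against 2.84, 2.53 and 0.438 in the first experiment and 3.87 and 6.91 against 3.60 and 0.717 in the second. The groups did not overlap, but in the second experiment the lower control and the higher library labelled Reg1Δ/Δ were close. The log2 fold change was -1.73 (SE 0.39, limma FDR 0.0046), and under quantile normalization it was -0.96 with an FDR of 0.0871. Its transcripts from the RefSeq start, which include all full-length coding ones, had 2.75, 3.10 and 1.25 against 0.161, 0.303 and 0.169 TPM and 2.48 and 4.39 against 0.521 and 0.550, a wider gap than that of the gene as a whole. The remainder came from 4 processed transcripts inside the gene. Prdm16 lies on chr4:154316125-154636873, minus strand.

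Mecom, Prdm16, Gfi1 and Etv6 work through corepressors. Of 10 such genes tested, 2 were lower and 0 higher (0 at an unadjusted p under 0.05), with a median of -0.14, against -0.25 for all genes (-0.09 against 0.14 under quantile normalization). Ncor1, a partner of Etv6, fell by 0.38 (limma FDR 0.0278; -0.03 and not called under median-of-ratios scaling), and Rcor1, a partner of Gfi1, had the highest value (0.21, limma FDR 0.141; 0.52 and 0.55 under the scalings, both called). Ctbp1, which binds Mecom and Prdm16, had a log2 fold change of -0.07 (limma FDR 0.654; 0.28 and not called under median-of-ratios scaling). Under median-of-ratios scaling 1 was called lower and 4 higher.

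Mllt3 changed least. Its TPM was 43.2, 74.4 and 58.6 against 33.5, 29.3 and 31.8 in the first experiment and 93.6 and 106 against 55.8 and 59.6 in the second. The groups did not overlap, and the ratios of the means were 1.86 and 1.73. The log2 fold change was -0.82 (SE 0.14, limma FDR 0.000985) and ranked 3332 among the falls of all tested genes, and without the experiment as covariate the FDR was 0.0697. Under median-of-ratios scaling the fall was smaller (-0.47, limma FDR 0.0286). Mllt3 lies on chr4:87769925-88033364, minus strand.

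Mllt3 also has an upstream and an internal start. Its full-length transcript, Mllt3-201, had 2.22, 6.05 and 4.52 against 1.29, 0.840 and 1.52 TPM and 7.26 and 14.4 against 5.84 and 5.93 (log2 fold change -0.997, SE 0.26, limma FDR 0.0244). All transcripts of the upstream start together had 11.9, 15.9 and 11.8 against 5.29, 5.27 and 4.05 TPM, and then 13.4 and 17.7 against 9.44 and 12.6. The internal start gave most of the TPM in every library, 72.3% to 87.2%, with 31.2, 58.4 and 46.5 against 28.1, 24.0 and 27.7 TPM and 79.9 and 87.8 against 46.2 and 46.9. Its share of the gene was higher in all 3 libraries labelled Reg1Δ/Δ than in all controls of the first experiment (81.7% to 87.2% against 72.3% to 79.4%) and lower in those of the second (78.8% and 82.8% against 83.2% and 85.3%), so that no common shift between the starts was seen.

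Within the internal start, transcripts of unequal length behaved differently. Mllt3-202, of 1956 nt, had 9.78, 14.1 and 15.3 against 5.26, 4.98 and 4.67 TPM and 22.3 and 16.9 against 6.72 and 4.98 (log2 fold change -1.36, SE 0.17, limma FDR 0.000581). Mllt3-208, of 794 nt, had 1.90, 0.896 and 3.24 against 4.75, 1.87 and 6.32 and then 57.5 and 70.9 against 39.5 and 42.0, with values that overlapped in the first experiment (log2 fold change 0.22, SE 0.37, limma FDR 0.707). Mllt3-207, of 422 nt, was found in the first experiment (19.5, 43.4 and 28.0 against 18.1, 17.1 and 16.8 TPM) and was at 0 in all 4 libraries of the second. With coding transcripts of at least 1000 nt alone, a setting chosen after the data were seen, the log2 fold change of Mllt3 was -1.41 (limma FDR 2.46e-05).

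The windows before both starts are shown since the internal start carries most of the level. The upstream window is at chr4:88033408-88033657, ahead of the gene, and the internal one at chr4:87806324-87806573, inside it.
Mllt3 upstream start: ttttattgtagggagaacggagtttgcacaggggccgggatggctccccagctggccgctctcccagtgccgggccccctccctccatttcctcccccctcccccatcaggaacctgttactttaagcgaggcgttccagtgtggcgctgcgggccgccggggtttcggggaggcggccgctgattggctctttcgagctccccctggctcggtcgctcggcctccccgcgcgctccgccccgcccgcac
Mllt3 internal start: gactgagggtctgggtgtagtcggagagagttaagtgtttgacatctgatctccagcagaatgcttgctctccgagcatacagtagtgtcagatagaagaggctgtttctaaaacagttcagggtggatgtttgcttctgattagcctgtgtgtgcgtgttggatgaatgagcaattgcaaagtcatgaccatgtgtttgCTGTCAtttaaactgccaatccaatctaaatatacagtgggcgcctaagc
They differ in base composition, with 69.2% G and C upstream and 45.2% at the internal start, against a median of 52.4% over all windows. The reverse of TGACAG began 50 bases before the internal start, and the upstream window had none of the 5 motifs.

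**Figure D3:**
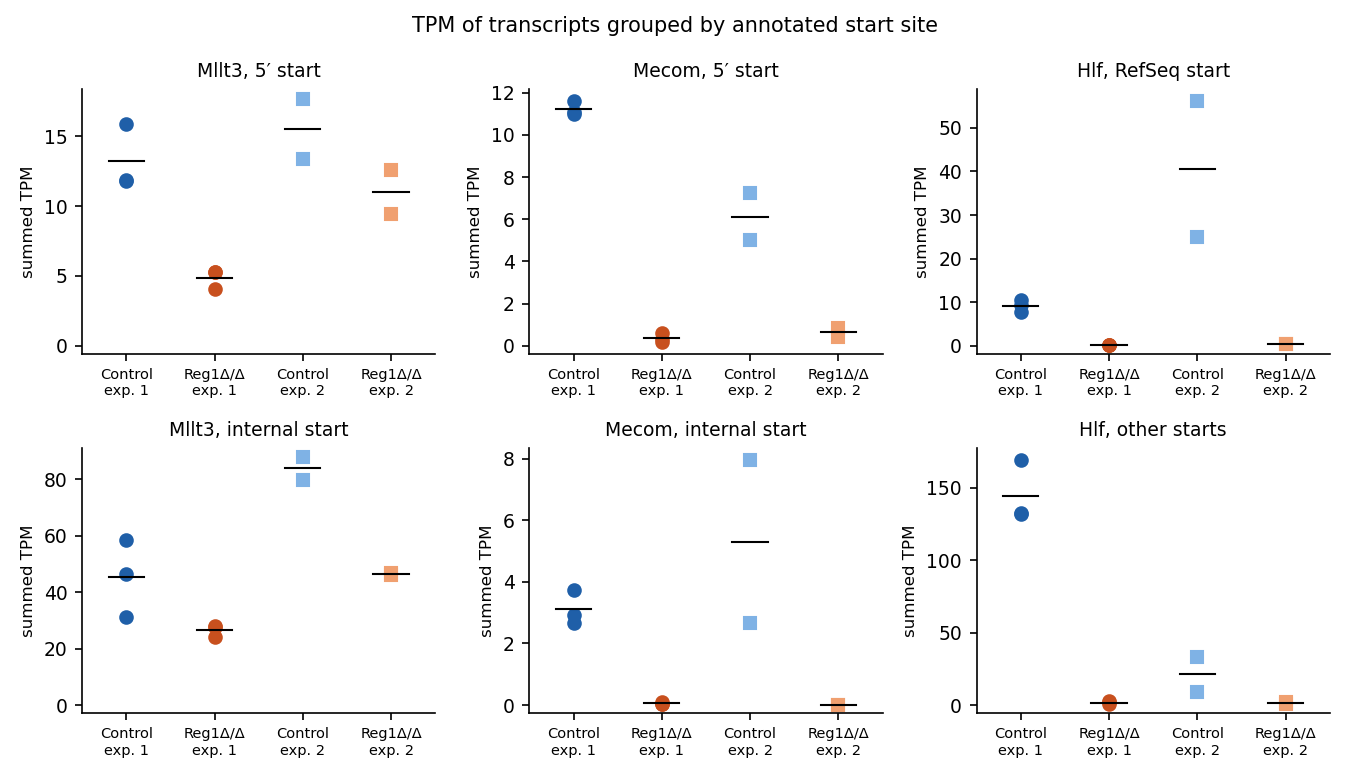
Summed TPM (linear axes from 0, each with its own range) of the transcripts of Mllt3, Mecom and Hlf grouped by annotated start, 1 point per library with a black line at the mean of each of the 4 groups, where Reg1Δ/Δ stands for the libraries so labelled. Both Mecom starts and both Hlf groups fall to near 0 in the libraries labelled Reg1Δ/Δ, while the internal Mllt3 start keeps 24.0 to 46.9 TPM.

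The elongation partners of Mllt3 were mixed. Of 7 tested, 4 were lower and 0 higher (0 at an unadjusted p under 0.05), with a median of -0.38. Aff4, a scaffold of the super elongation complex, had the largest fall, at 97.8, 98.0 and 62.3 against 21.6, 19.9 and 19.8 TPM and 14.6 and 17.1 against 3.65 and 4.68 (log2 fold change -1.88, limma FDR 7.58e-06). Dot1l had a log2 fold change of -0.38 (limma FDR 0.0637; 0.31 and not called under quantile normalization), and Ell2, with the highest value, of 0.57 (limma FDR 0.0979), which was called under both scalings (0.93 and 0.90), where 2 of the 7 were lower. Mllt1 (ENL), the close relative of Mllt3, had -0.06 (limma FDR 0.754), with overlapping groups, and was positive under both scalings.

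Erg, an ETS factor, was the member whose control level differed by the widest ratio between the experiments (mean 12.2 and 74.4 TPM). Its TPM was 11.8, 14.8 and 10.05 against 1.39, 1.30 and 0.613 in the first experiment and 56.3 and 92.5 against 4.27 and 3.47 in the second. The level was thus higher in the second experiment in both groups, as it was for Mllt3 and, by its means, for Gfi1, and the ratio of the means was 11.1 and 19.2. The log2 fold change was -3.16 (SE 0.27, limma FDR 1.03e-05). All its TPM was in coding transcripts, of which Erg-203, from the start nearest the 3′ end, had 1.37, 3.11 and 1.69 against 0.0002, 0.0619 and 0.249 TPM and 23.4 and 35.3 against 1.15 and 0.745. A further 3 of its 7 transcripts, with 23.9% to 78.5% of the gene's TPM, were not in the annotation used here and could not be placed at a start. Erg lies on chr16:95359169-95586593, minus strand.

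Fli1, the nearest relative of Erg, had the most even fall. Its TPM was 48.1, 54.4 and 45.6 against 7.65, 7.36 and 7.42, and 30.9 and 34.7 against 3.83 and 2.96. Both groups lay within a narrow range in each experiment, and the log2 fold change of -2.72 had the smallest SE of the 9 (0.12, limma FDR 3.05e-07). Fli1-201, its long coding transcript of 3318 nt, had 22.8, 32.5 and 23.2 against 4.12, 4.07 and 3.80 TPM and 25.9 and 31.6 against 3.83 and 2.96. The short Fli1-202 had 25.3, 21.9 and 22.4 against 3.53, 3.29 and 3.62 in the first experiment, and 5.04 and 3.08 against 0 in the second. Fli1 lies on chr9:32422204-32542861, minus strand.

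Etv6 fell by 1.87 (SE 0.16, limma FDR 9.99e-06). Its TPM was 94.6, 90.3 and 81.7 against 17.3, 20.3 and 24.3 in the first experiment and 49.2 and 73.4 against 20.1 and 19.1 in the second. The libraries labelled Reg1Δ/Δ had about the same level in both experiments. In the first experiment, 38.0% to 49.7% of its TPM came from Etv6-203, a processed transcript of 373 nt (41.4, 39.3 and 35.7 against 6.57, 8.42 and 12.1 TPM), which was at 0 in all libraries of the second. Transcripts from the RefSeq start had 51.8, 48.4 and 44.7 against 9.78, 10.6 and 10.6, and 49.2 and 73.4 against 20.1 and 19.1. Etv6 lies on chr6:134035700-134270158, plus strand.

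Other ETS factors spread from no called change to a fall deeper than that of Erg. Ets1 had 9.43, 17.4 and 19.9 against 0.395, 0.707 and 0.331 TPM and 32.7 and 46.9 against 1.62 and 0.764 (log2 fold change -3.75, limma FDR 2.3e-06). Elf1 fell by 1.17 (limma FDR 2.11e-05) and Ets2 by 0.87 (limma FDR 0.00228, 0.342 under quantile normalization). Gabpa, with overlapping groups, had -0.29 (limma FDR 0.203; 0.05 under median-of-ratios scaling).

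The 7 factors that bind together at stem cell enhancers, the heptad, include Erg and Fli1. Of the 7, 6 were lower and 1 higher, with a median of -1.28, and this split of calls was the same under both scalings. Runx1 had 27.1, 42.4 and 24.5 against 9.59, 6.67 and 11.1 TPM and 28.1 and 27.6 against 13.3 and 9.99 (log2 fold change -1.48, limma FDR 0.000177). Gata2 fell by 1.28 (limma FDR 3.67e-05), Lmo2 by 1.07 (limma FDR 0.00073) and Lyl1 by 1.03 (limma FDR 2.76e-05; -0.54 under quantile normalization). Tal1, which also serves erythroid cells, was the one called higher, with 7.54, 5.74 and 6.17 against 6.54, 7.79 and 10.1 TPM, which overlap, and 68.4 and 70.9 against 117 and 105 (log2 fold change 0.43, limma FDR 0.0265; 0.88 and 0.75 under the scalings).

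Gfi1 fell by 1.98 (SE 0.29, limma FDR 0.000349). Its TPM was 9.89, 11.4 and 7.92 against 1.14, 0.755 and 2.72 in the first experiment and 9.48 and 18.5 against 5.31 and 1.89 in the second. The groups did not overlap, but those of the second experiment were spread widely. The main coding transcript, Gfi1-202, had 3.90 to 7.48 TPM in the 5 controls and 0.328 to 0.974 in the libraries labelled Reg1Δ/Δ, and most of the gene's TPM, 68.8% to 100%, came from transcripts of its first RefSeq start. Gfi1 lies on chr5:107716657-107726036, minus strand.

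Gfi1b, the relative of Gfi1 that serves erythroid and megakaryocytic cells, went the opposite way. Its first-experiment TPM was 636, 375 and 776 in the controls against 1277, 921 and 1419, and 150 and 176 against 287 and 289 in the second. The groups did not overlap, and the log2 fold change was 0.96 (SE 0.20, limma FDR 0.00316), 0.97 and 1.32 under the scalings. It was the only one of 10 tested relatives of the members called higher, while 7 were lower, with a median of -1.17. The 7 include Nfil3, which passed the filter through the controls alone. Under quantile normalization Mllt1 was called higher as well (0.36, limma FDR 0.0302).

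The relatives of Hlf, the PAR factors Dbp and Tef and the repressor Nfil3, which bind the same DNA letters, all fell. Dbp had 7.06, 8.24 and 7.72 against 2.59, 2.02 and 1.47 TPM and 21.47 and 21.01 against 4.71 and 4.38 (log2 fold change -1.72, limma FDR 7.06e-06). Tef fell by 1.17 (limma FDR 7.05e-05). Nfil3 had 1.68 to 3.35 TPM in the 5 controls and 0.165 to 0.4 in the libraries labelled Reg1Δ/Δ (log2 fold change -1.55). It reached 1 TPM in the controls alone, so that no test of it is given. All 3 falls were smaller in size than that of Hlf, a difference that was not tested. Under quantile normalization they were -1.06 for Dbp and -0.77 for Tef, both still called, and -0.64 for Nfil3.

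**Figure D4:**
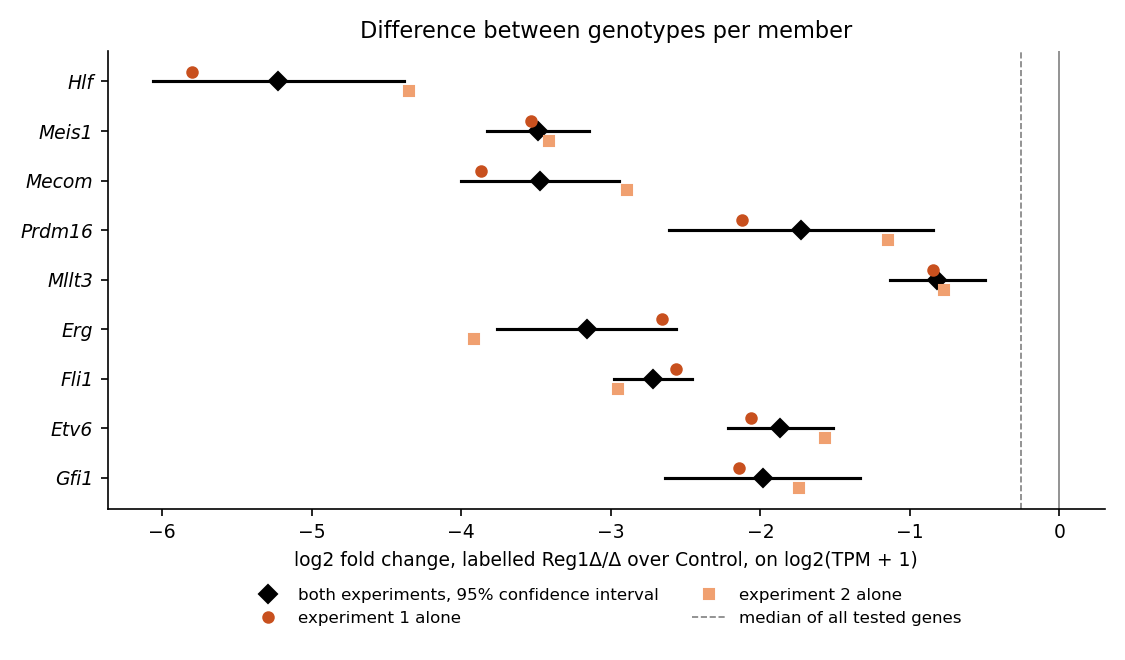
Log2 fold change of each factor on log2(TPM + 1), libraries labelled Reg1Δ/Δ over controls. Diamonds with bars give the value over both experiments with its 95% confidence interval, circles and squares each experiment alone, and the dashed line the median of all tested genes (-0.25). All intervals lie below that median, with Hlf lowest (-5.22) and Mllt3 closest to it (-0.82).

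Each experiment was then taken alone. In the first, all 9 factors were lower at an FDR under 0.05, where 38.3% of all tested genes were. In the second, with 2 libraries per genotype, 5 were (Mecom, Mllt3, Meis1, Erg and Fli1), where 12.3% of all tested genes were. The other 4 were lower by value, with log2 fold changes of -4.35 for Hlf (limma FDR 0.0512), -1.57 for Etv6 (0.0534), -1.74 for Gfi1 (0.163) and -1.14 for Prdm16 (0.33).

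Whether the falls were unequal in size was tested by an interaction term of genotype and experiment in limma. None of the 9 had an FDR under 0.05 (0.242 to 0.953), where 0.443% of all tested genes did, and 3 had an unadjusted p under 0.05. These were Mecom and Hlf, whose falls were smaller in the second experiment by 0.98 (SE 0.38) and 1.45 (SE 0.63) on the log2 scale, and Erg, whose fall was larger by 1.26 (SE 0.38). With protein_coding transcripts only, the value for Hlf was 0.40 (limma FDR 0.784), and the mean of its coding transcript Hlf-201 was 9.15 against 0.183 TPM in the first and 40.5 against 0.423 in the second experiment, a wider ratio in the second. With a pseudocount of 0.1, the value for Erg was -0.78 (limma FDR 0.616).

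Over single transcripts, 28 of the 71 were high enough to be tested. Of these, 22 were lower and 0 higher (0 at an unadjusted p under 0.05), where 14.9% of all 31937 tested transcripts were lower. Of the 22, 6 (Hlf-201, Hlf-202, Hlf-203, Mecom-212, Gfi1-202 and Erg-202) were under 1 TPM in every library labelled Reg1Δ/Δ and so passed the filter through the controls alone, and the count is given as a description. The 6 not called were 3 of Mllt3, 1 of Mecom, 1 of Etv6 and 1 of Prdm16. The make-up of the libraries differs between the experiments in a way that touches these values. Transcripts under 500 nt took 52.3% to 54.5% of all TPM in the first experiment and 20.0% to 27.3% in the second, with overlapping genotypes in both. The number of genes at 1 TPM or above did separate the genotypes, with 13366 to 14307 in the controls and 11256 to 12048 in the libraries labelled Reg1Δ/Δ, and its part in the falls was not tested. For Hlf, such transcripts held 63.3% to 74.4% of the gene's TPM in first-experiment controls and 0% to 19.4% in second-experiment controls. With coding transcripts of at least 1000 nt alone, all 9 factors were lower at an FDR of at most 2.73e-05.

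Other genes known for stem cell self-renewal were compared in the same way. Of 12 listed 10 were tested, 7 were lower and 0 higher (0 at an unadjusted p under 0.05), with a median of -0.99. Mycn had the largest fall, at 41.5, 24.4 and 27.1 against 4.14, 4.6 and 4.43 TPM and 21.2 and 33.5 against 1.64 and 2.32 (log2 fold change -2.81, limma FDR 4.22e-06). Kmt2a, whose fusions with Mllt3 drive leukemia, fell by 1.13 (limma FDR 0.00069, 0.153 under quantile normalization), and Nfix had the highest value (0.09, limma FDR 0.643; 0.38 and 0.43 under the scalings, both called).

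Of 6 genes of quiescence and cycling, 3 were lower and 1 higher. All 3 falls were of cyclin-dependent kinase inhibitors. Cdkn1c (p57), which keeps stem cells out of cycle, had 19.3, 20.7 and 16.6 against 1.01, 0.639 and 1.03 TPM and 11.3 and 22.1 against 0.468 and 1.58 (log2 fold change -3.28, limma FDR 2.02e-06). Cdkn1a fell by 2.50 (limma FDR 3.2e-05) and Cdkn1b by 0.97 (limma FDR 0.000223, 0.243 under quantile normalization). The cycling gene Ccnb1 was higher, with groups that overlap (log2 fold change 0.49, limma FDR 0.0357; FDR 0.0869 under quantile normalization, and 0.85 with FDR 0.0032 under median-of-ratios scaling), and Mki67 (-0.39) and Top2a (-0.14) had no called change.

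**Figure D5:**
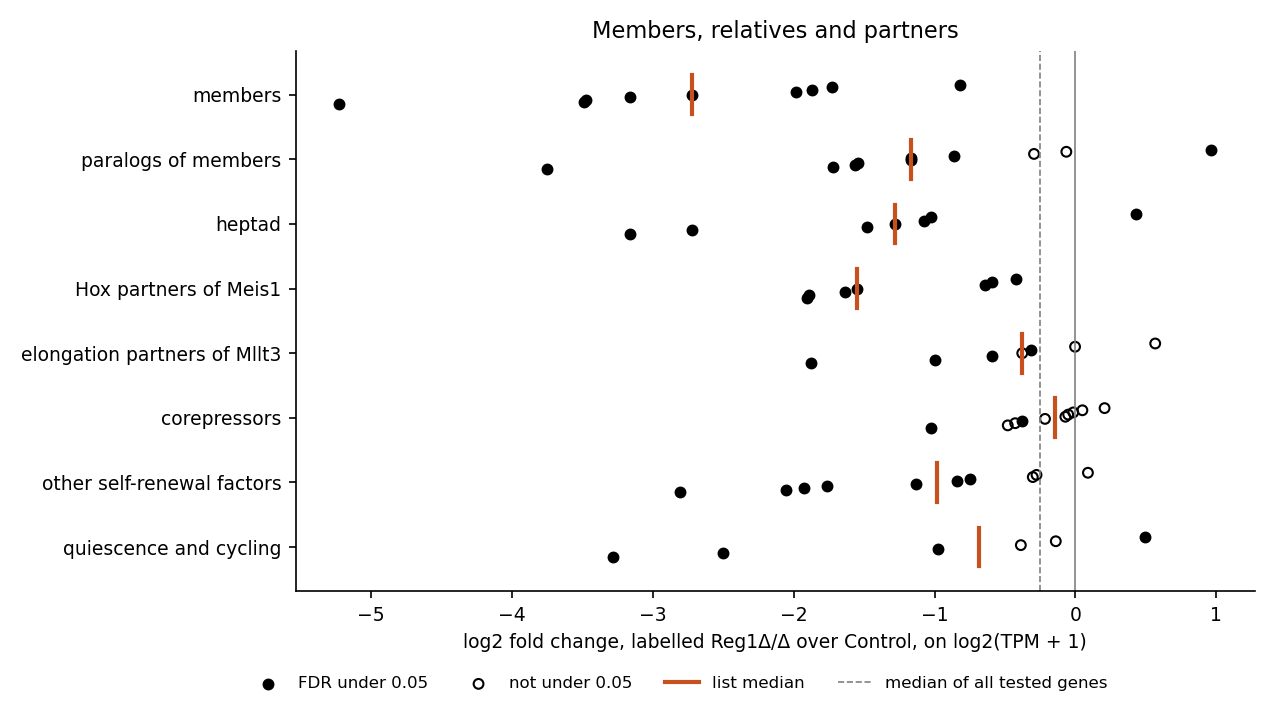
Log2 fold changes of the 9 members and of the tested genes of each list (1 point per gene, filled where the limma FDR was under 0.05), with the list median in orange and the median of all tested genes as a dashed line. The members have a median of -2.72, the Hox partners of -1.55 and the corepressors of -0.14.

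The genes whose values over the 10 libraries were most like those of a member were found by Pearson's r of log2(TPM + 1) after the mean of each experiment was taken off, among the protein-coding genes of at least 10 TPM. The 10 points fall into a control and a labelled cluster, so that r mostly measures how evenly 2 genes split the genotypes, and it is given as a description. Fli1 was closest to Klhl24 (0.999), Ppp1r18 (0.999) and Marcksl1 (0.998), Meis1 to Wls (0.999), Ptgs1 (0.998) and Gcnt2 (0.997), and Hlf to Arhgef2 (0.997), Rasa3 (0.997) and Akap13 (0.996). Mecom was closest to Plscr3 (0.996), Il6st (0.995) and Hcls1 (0.995), Etv6 to Myo1g (0.996), Jak3 (0.994) and Ppp1r13b (0.994), and Erg to RP24-315D19.2 (0.994), Mmp8 (0.994) and Sepp1 (0.993). The values were lower for the other 3, with Gfi1 closest to Mapre2 (0.986), Senp1 (0.984) and Jakmip1 (0.983), and Prdm16 to RP23-440D19.2 (0.969), Irf2bp2 (0.967) and Akap9 (0.967). Mllt3 was closest to Cep164 (0.977), Rag2 and Lef1 (both 0.973), of which the last 2, known from lymphoid cells, fell by 3.89 and 4.41 on the log2 scale.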

How the data were processed

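RNA-seq of sorted CD34- HSCs from 10 mice was used, with 3 and 2 libraries per genotype in 2 experiments named by the sample titles. The authors aligned reads with STAR, estimated TPM per transcript with Salmon (version 0.9.1 and mm10 in the submitters' processing notes) and deposited log2(TPM + 1). The labels and the study's methods name different cDNA kits. From the log2 values, TPM was recovered and summed per gene. A gene entered the test when 5 or more of 10 libraries had 1 TPM or above (12874 genes). The test was limma (version 3.58.1, R 4.3.3), with a pseudocount of 1, which understates changes of low genes, the experiment as covariate and the Benjamini-Hochberg FDR at 0.05. Single transcripts were tested likewise. Members and gene lists were chosen with earlier results of these data known. Named genes were all members, Zc3h12a, the 3 genes most alike per member, and from each list the largest changes and the closest relatives or partners; some genes of the lists are counted but not reported here by name. Positions are from GENCODE M21 on GRCm38, a later release than the authors', and 68 of 71 member transcripts matched it. Promoter windows from RefSeq (GRCm38.p6) matched 8 of 9 members. Figures were drawn with matplotlib. Depth is unknown and no interval for counting error is given. No result on simulated data is given here.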

Additional observations from a re-analysis of the deposited data

How the results depend on the processing

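The 9 factors were followed over 23 other settings, of which the FDR of 0.01 gave no new values. All 194 values were lower, and 188 also passed the threshold of 0.05. Settings that changed only the gene filter, the covariates or the variance estimate repeated the main fold changes, so that the sign could not differ there. Leaving out each library in turn kept 9 factors lower and 0 higher, with 4409 to 5242 of all genes lower and 1548 to 1961 higher. The members' count was 5 with a TPM of at least 1 in all 10 samples, where only 5 were tested, and 5 in the second experiment alone, where 1581 genes were lower and 452 higher. Without the experiment covariate, 3052 were lower and 716 higher, and 8 of 9 factors were called. Quantile normalization gave 2636 lower and 3861 higher, median-of-ratios scaling 3973 higher, and an FDR of 0.01 gave 1158 higher. The interaction, never called, changed sign for Meis1 with a pseudocount of 0.1 (-0.15), with median-of-ratios scaling (-0.01) and with protein_coding transcripts only (-0.11), and for Mllt3 with median-of-ratios scaling (-0.035). With protein_coding transcripts only it was also smaller for Prdm16 (0.13 in place of 0.98) and Hlf (0.40 in place of 1.45). With the replicate block, 9 factors were lower and 0 higher, with 4545 genes lower and 1703 higher. Same-numbered libraries correlated in their deviations at -0.05 to 0.18, so the numbers are not known to pair the mice, and the block changed no call of a factor.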
